A study of Mus musculus with 9 samples.

Results

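Heat shock proteins and chaperonins were taken from the expression table by gene symbol: every row with a symbol starting Hsp (followed by a letter from a to h or a digit), Dnaj, Cct2 to Cct8 or Bag1 to Bag6. The rule found 76 of 27497 gene identifiers. Of these, 12 had a mean below 1 RPKM (reads relative to gene length and library size) over the 9 libraries and were left out, so 64 of the 12780 tested genes are members. By class, 10 of 12 Hsp70 genes, 3 of 3 Hsp90 genes, 29 of 37 Hsp40 genes, 9 of 10 chaperonin genes, 4 of 5 small heat shock genes, 5 of 5 Bag genes and 4 of 4 other genes were tested. Poly(A) RNA came from olfactory bulbs of adult C57/BL6 mice, with 3 separate mice in each of 3 groups. The control group was kept in carbon-filtered clean air. The 30 min group was killed directly after 30 min in a cocktail of odorants. The 120 min group received the same 30 min exposure followed by 90 min in clean air. The labels give an age of 6 to 8 weeks or older and name no transgene or sex.

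Chaperones bind unfolded or partly folded proteins and help them reach or keep their shape. Hsp70 proteins hold and release short stretches of a client in cycles driven by ATP, Hsp40 (J-domain) proteins bring clients to them and trigger ATP hydrolysis, and Bag proteins help release the nucleotide. Hsp90 acts later on kinases and receptors, and chaperonins are barrels that enclose a client, the cytosolic one (CCT) folding actin and tubulin and the mitochondrial one being Hspd1 with its lid Hspe1. In neurons the constitutive Hsp70, Hspa8, also strips clathrin from synaptic vesicles with the J-domain protein auxilin (Dnajc6) and works with cysteine string protein (Dnajc5) at the presynaptic terminal. Heat shock factor 1 drives many of these genes through repeats of the bases GAA and their complement, and the unfolded protein response drives those of the endoplasmic reticulum through its own element.

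Promoter stretches are shown for tested members that carry one of these 2 textbook elements in full. Other stress-inducible members, such as Bag3 and Hspa1a, matched only the shorter heat shock form given below. RefSeq windows on build GRCm38.p6, from 250 bases before to 50 bases after each transcript start, were found for 59 of the 76 members. The 3-unit heat shock element GAANNTTCNNGAA, searched on both strands, was in the windows of 4 members (6.78% of those with a window, against 0.662% of 27025 genes), which are Hspd1, Hspe1, Hsph1 (named Hsp110 in the table) and Dnajb6, which was under the level filter and is not shown. Hspd1 and Hspe1 lie head to head and share the stretch shown, in which 2 matches on opposite strands overlap. Its shorter form GAANNTTC was in 14 members (23.7%, against 9.04% of genes), and TTCNNGAA, which overlaps it within the 3-unit form, was in 8 (13.6%, against 9.6%). The ER stress element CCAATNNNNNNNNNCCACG was in 3 members (5.08%, against 0.137% of genes), which are Hspa5, Hsp90b1 and Dnajc3 (named Dnajc3a in the table). The cAMP response element TGACGTCA, the site of an activity-driven factor, was in 0 of the 59 member windows and in 2.03% of all genes. A match describes letters in a window and is not a bound site. Capitals mark the matched bases.
Hspe1, heat shock element, plus strand of chr1:55088034-55088101: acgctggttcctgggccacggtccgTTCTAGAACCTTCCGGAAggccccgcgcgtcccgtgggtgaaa
Hsph1, heat shock element, minus strand of chr5:149636266-149636325: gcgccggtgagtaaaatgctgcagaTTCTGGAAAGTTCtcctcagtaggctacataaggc
Hspa5, ER stress element, plus strand of chr2:34772000-34772068: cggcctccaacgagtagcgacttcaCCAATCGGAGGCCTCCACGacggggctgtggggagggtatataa
Dnajc3, ER stress element, plus strand of chr14:118937802-118937870: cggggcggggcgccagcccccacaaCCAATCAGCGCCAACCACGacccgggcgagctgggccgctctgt
Hsp90b1, ER stress element in 2 places, minus strand of chr10:86705508-86705681: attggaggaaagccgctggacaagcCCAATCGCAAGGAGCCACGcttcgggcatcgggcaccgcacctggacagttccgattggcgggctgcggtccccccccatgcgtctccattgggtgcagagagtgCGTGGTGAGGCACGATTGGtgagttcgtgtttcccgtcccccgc
The match lies at positions -89 to -72 of the Hspe1 transcript start, 16 to 28 of an Hsph1 start, -65 to -47 for Hspa5, -105 to -87 for Dnajc3 and from -212 to -89 for the pair in Hsp90b1, the base before the start being -1.

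The libraries held an estimated 7.16 to 29.9 M reads, recovered from the step size of low values, so that 3 reads on a gene of 1 kb correspond to 0.1 to 0.419 RPKM. The odor exposure could be read in the tissue: all 6 activity-induced genes checked (Fos, Egr1, Arc, Npas4, Nr4a1 and Junb) rose at 30 min, with limma adjusted p under 0.05 and a median log2 difference of 3.15. Markers of mitral and tufted cells, granule cells and glia were present in all groups, and none passed the limma test. The summed level of hemoglobin and other red blood cell markers was 38.0 to 145 RPKM for clean air, 153 to 197 RPKM at 30 min and 46.3 to 189 RPKM at 120 min. In a whole bulb, fewer cells of a type and less RNA per cell cannot be told apart.

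No heat shock or chaperonin gene differed between groups at an adjusted p under 0.05 in limma, over the 3 comparisons and the test for any difference among groups. The lowest adjusted p was 0.790 (Dnajc6) at 30 min against clean air, 0.331 (Bag4) at 120 min against clean air and 0.999 at 120 min against 30 min. Over all tested genes the same rule called 0.141% at 30 min, 0.0861% at 120 min, 0.0782% at 120 min against 30 min and 0.164% for any difference, so a count of 0 in 64 lies near the background. At an unadjusted p under 0.05, 4 members stood out at 30 min (5.92% of all genes), 6 at 120 min (9.57% of all genes), 2 at 120 min against 30 min (3.36% of all genes) and 6 for any difference (6.64% of all genes). These shares, 6.25%, 9.38% and 3.12% of the members for the 3 comparisons, are close to those of all genes.

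Small differences leaned upward at 30 min. Of the 64 members, 50 (78.1%) had a higher mean on the log2 scale at 30 min than in clean air, with a median difference of 0.18, against 61.8% of all genes and a median of 0.08. The number of members above clean air depends on scaling. It was 42 of 64 after each library was centred on its median, 44 after TMM scaling and 45 after quantile normalization. In these 3 settings the member medians were 0.10, 0.12 and 0.11, beside -0.0012, 0.02 and 0.02 for all genes. The number above also depends on single libraries. Without clean air mouse 3 it was 43, with a median of 0.05 (all genes 0.03). In that fit 1 member had an unadjusted p under 0.05 (limma, 4.59% of all genes). Without the 30 min mouse 2 it was 43, again with 1 such member (3.06% of all genes). Without clean air mouse 1, 7 members (10.9%, all genes 9.92%) had an unadjusted p under 0.05 at 30 min and 9 (14.1%, all genes 12.7%) at 120 min. Without clean air mouse 3, 3 members (4.69%, all genes 8.95%) did at 120 min. In these fits 0 members passed after adjustment (limma). At 120 min, 38 of 64 members lay above clean air (59.4%, median 0.07, all genes 53.9%, median 0.03), and 25 of 64 lay above the 30 min level (39.1%, all genes 43.7%). Every 30 min mouse exceeded every clean air mouse for 6 members (7.29% of all genes did so), and the reverse held for 1 member (4.08% of all genes). At 120 min, 5 members had every mouse above every clean air mouse (7.86% of all genes), and 2 had every mouse below (5.27% of all genes). Against the 30 min mice, every 120 min mouse lay above for 5 of 64 members (638 of 12780 genes) and below for 3 (723 of 12780 genes). Some lists of cell type markers leaned upward as well, and others did not. At 30 min, 7 of 8 astrocyte markers had a higher mean than in clean air (median 0.26, 2 at an unadjusted p under 0.05), as did 4 of 6 mitral and tufted cell markers (median 0.20, 1) and 4 of 4 granule cell markers (median 0.19, 0). At 120 min these medians were 0.19, 0.42 and 0.12, with 1, 3 and 0 markers at an unadjusted p under 0.05. Over all genes 61.8% lay above clean air at 30 min, with a median of 0.08. Oligodendrocyte and microglia markers each had 4 of 6 above at 30 min, with medians of 0.03 and 0.11. Cortical neuron markers had 1 of 2 (median -0.05). Markers of ensheathing cells and olfactory sensory neurons had 2 of 3 above at 30 min (median 0.18) and 0 of 3 at 120 min (median -0.08). Their part in the members' values was not tested.

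**Figure D1:**
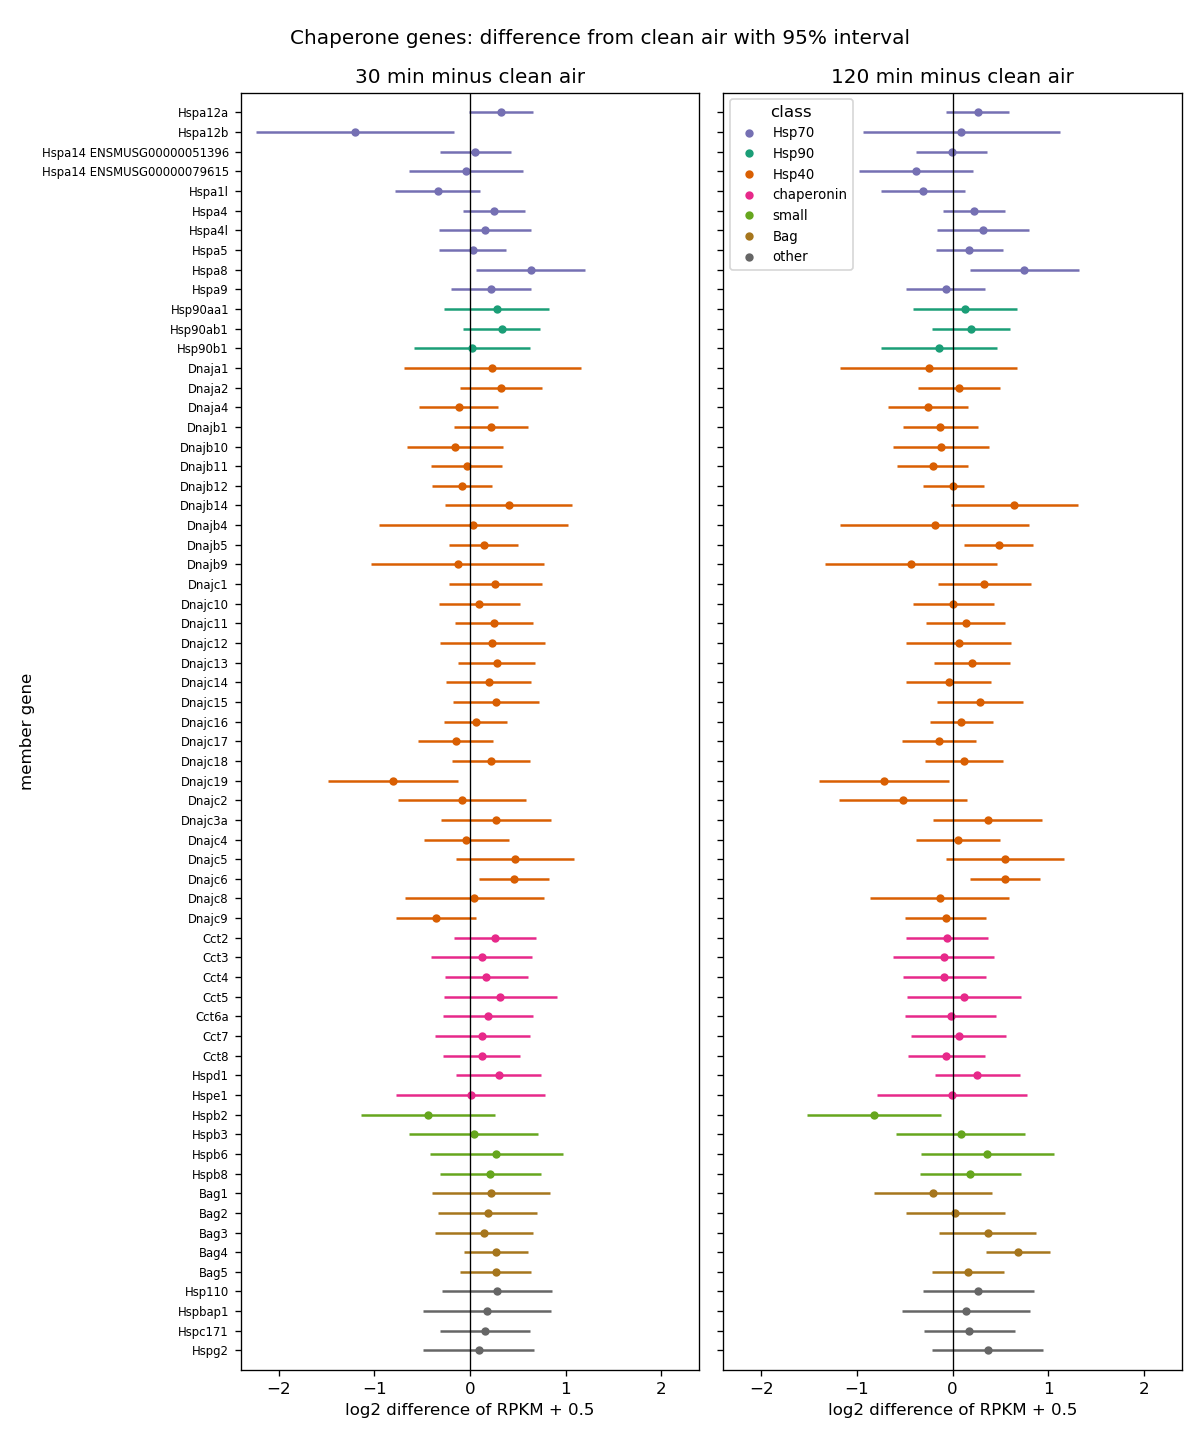
Difference of each of the 64 members from clean air, as the limma log2 difference of RPKM + 0.5 (points) with its 95% interval (bars), at 30 min on the left and 120 min on the right, coloured by class, n = 3 mice per group. Points at 30 min lie mostly right of 0, and most intervals cross 0.

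Among the Hsp70 genes, Hspa8 had the highest level, a mean of 92.6 RPKM or 33.6% of the summed class. Hspa8 stood at 85.2, 57.9 and 53.0 RPKM in the clean air mice, 106, 108 and 86.2 RPKM at 30 min, and 158, 80.4 and 98.9 RPKM at 120 min. All 30 min mice lay above all clean air mice, by a narrow margin for the lowest, while at 120 min one mouse was far above the rest and another lay below clean air mouse 1. The difference was 0.64 ± 0.26 (log2, SE, adjusted p = 0.818, limma) at 30 min and 0.75 ± 0.26 (adjusted p = 0.391, limma) at 120 min, where it was 0.48 without 120 min mouse 1.

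The Hsp70-related Hspa4, a nucleotide exchange factor of the Hsp110 family, had 33.0, 33.0 and 28.7 RPKM in clean air mice, 33.9, 41.2 and 38.2 RPKM at 30 min and 38.4, 39.2 and 33.2 RPKM at 120 min. Hspa12a, an atypical Hsp70, had 7.91, 7.94 and 8.10 RPKM in clean air mice, 11.1, 10.4 and 8.98 RPKM at 30 min and 9.58, 9.98 and 9.45 RPKM at 120 min. For both genes every odor-exposed mouse lay above every clean air mouse, and neither passed the test (Hspa4 0.25 ± 0.15 and 0.22 ± 0.15, Hspa12a 0.33 ± 0.15 and 0.26 ± 0.15 in log2 ± SE at 30 and 120 min). Hspa1l, a member best known from testis, had 4.10, 4.84 and 4.40 RPKM in clean air mice, 3.38, 4.11 and 2.84 RPKM at 30 min and 3.59, 2.98 and 3.93 RPKM at 120 min, so that all 120 min mice lay below all clean air mice by a small margin.

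Hspa12b, an atypical Hsp70 known from endothelial cells, gave the widest swing of the class. It stood at 2.12, 3.50 and 11.2 RPKM in clean air mice, 1.26, 2.70 and 1.28 RPKM at 30 min and 5.64, 4.14 and 4.66 RPKM at 120 min. Every 120 min mouse was above every 30 min mouse, and the clean air mice overlapped with both groups, with mouse 3 far above the others. The 120 min level differed from the 30 min level by 1.29 ± 0.47 (log2, SE, unadjusted p = 0.0189, adjusted p = 0.999, limma). At 30 min the difference from clean air was -1.20, and -0.59 without clean air mouse 3. The summed level of 10 endothelial and mural markers was 130 to 152 RPKM in clean air mice, 113 to 166 RPKM at 30 min and 129 to 148 RPKM at 120 min, ranges that overlap. Cldn5, the most abundant of these markers with a mean of 66.4 RPKM, was lower in every exposed mouse than in every clean air mouse. The other 9 markers had a higher mean at 30 min, and 8 of the 10 did at 120 min, with medians over the 10 of 0.37 and 0.33 (log2). None passed the limma test, while 2 at 30 min and 1 at 120 min had an unadjusted p under 0.05. Between 30 and 120 min their median was -0.02, and their part in the Hspa12b values was not tested.

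The Hsp70 of the endoplasmic reticulum, Hspa5 (BiP), stood at 52.8, 55.6 and 64.3 RPKM in clean air mice, 55.8, 67.0 and 53.4 RPKM at 30 min and 74.9, 60.3 and 60.4 RPKM at 120 min. The groups overlapped, and the differences were 0.03 (95% interval -0.33 to 0.38) and 0.18 (95% interval -0.18 to 0.53) on the log2 scale. Mitochondrial Hspa9 (mortalin) had 42.0 ± 8.11, 48.5 ± 4.80 and 39.8 ± 7.11 RPKM (SD, n = 3) in the 3 groups, which overlapped. The remaining Hsp70 rows, Hspa4l and both identifiers carrying the symbol Hspa14, had differences between -0.38 and 0.32 (log2) from clean air. Over the class the median difference was 0.11 at 30 min and 0.13 at 120 min, and the summed level was 240 ± 12.1 RPKM in clean air mice, 288 ± 24.9 RPKM at 30 min and 300 ± 51.8 RPKM at 120 min (SD, n = 3), with the sum weighted toward Hspa8. The exposed mice had sums of 266 to 360 RPKM and the clean air mice 229 to 253 RPKM, without overlap. The strictly stress-inducible pair Hspa1a and Hspa1b, near-identical copies whose reads the authors' counting could have split, lay under the level filter.

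The values around that filter were as follows. Just outside it, Hspa1a had a mean of 0.967 RPKM (lowest 0.59, highest 1.34), Dnajb3 0.841 RPKM and Hspa1b 0.620 RPKM (lowest 0.37, highest 0.96). Just inside it lay Hspb2 with 1.12 RPKM, Hspbap1 with 1.23 RPKM and the identifier ENSMUSG00000079615 of Hspa14 with 1.47 RPKM. Each Hspa1a and Hspa1b value at 30 min lay below the highest clean air value of the same gene. The other 9 rows below the filter were Hspb7, Dnajb13, Cct6b, Dnajc5b, Dnajb7, Dnajc5g, both rows named Dnajb8, and Dnajb6, which is listed at 0 in all 9 libraries. The small heat shock gene Hspb1 was not analysed here.

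Hsp90 was the most abundant class per gene, and 1 gene carried it. Hsp90ab1, the constitutive cytosolic form, had a mean of 403 RPKM, 86.0% of the summed class. It stood at 414, 383 and 277 RPKM in clean air mice, 410, 489 and 439 RPKM at 30 min and 390, 416 and 405 RPKM at 120 min. Clean air mouse 3 was lowest of all 9, and the other clean air mice lay within or near the range of the exposed mice. The 30 min difference was 0.33 ± 0.18 (log2, SE, adjusted p = 0.832, limma), and 0.16 without clean air mouse 3.

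Hsp90aa1, the stress-inducible cytosolic form, stood at 19.4, 21.1 and 15.4 RPKM in clean air mice, 17.4, 32.3 and 20.2 RPKM at 30 min and 17.0, 25.9 and 18.8 RPKM at 120 min. Mouse 2 was highest in each group, and the groups overlapped. Its difference at 30 min was 0.28 (log2, 95% interval -0.27 to 0.82), and 0.02 without 30 min mouse 2. Hsp90b1 (Grp94), the form of the endoplasmic reticulum, stood at 36.1, 59.0 and 41.5 RPKM in clean air mice, 37.8, 61.9 and 39.6 RPKM at 30 min, and 39.98, 55.2 and 29.4 RPKM at 120 min. Mouse 2 was again highest in each group. Its differences of 0.02 and -0.15 (log2) from clean air are small beside that spread. The class median was 0.28 at 30 min and 0.13 at 120 min, and the summed level was 422 ± 76.5, 516 ± 60.7 and 466 ± 27.3 RPKM (SD, n = 3).

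**Figure D2:**
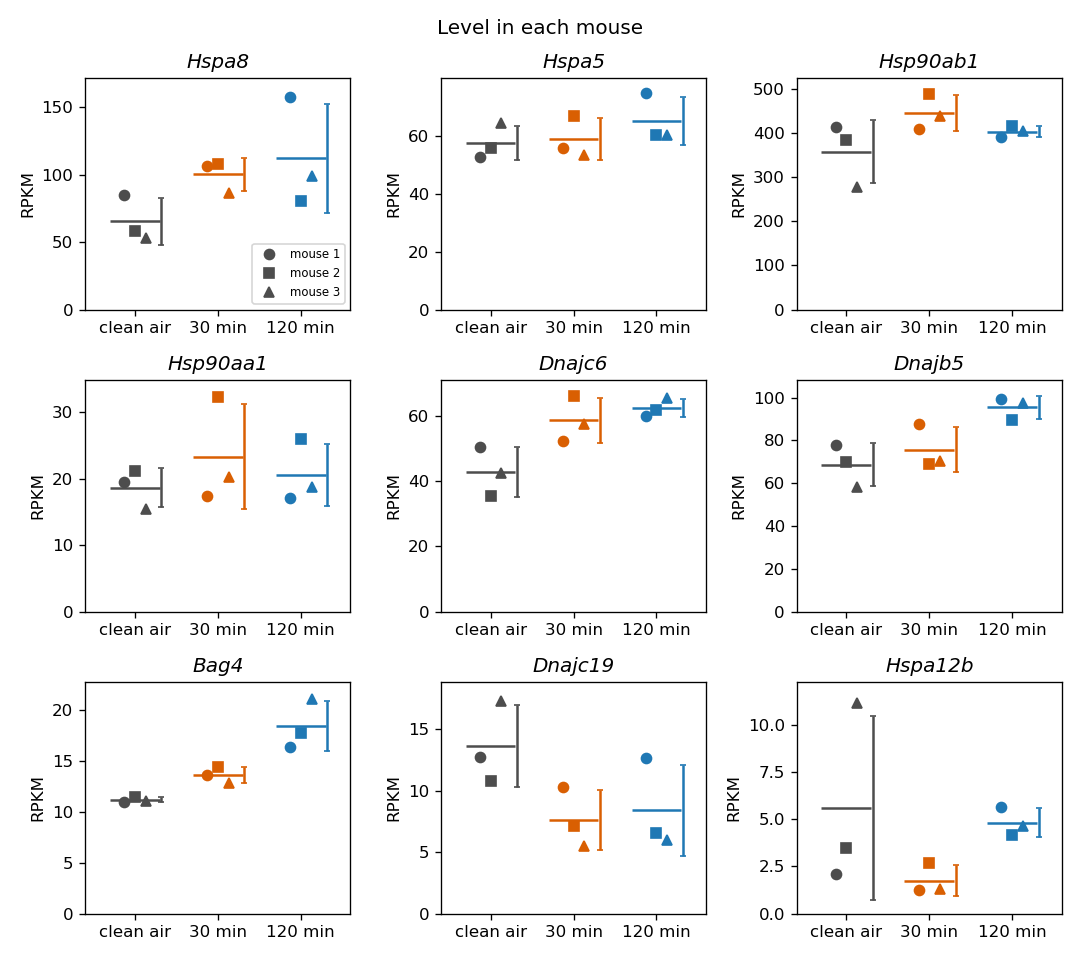
Level in RPKM (vertical axes start at 0) of 9 members in each mouse, with symbols for mouse number, horizontal lines for group means and bars for the SD, n = 3 per group. Hspa8, Dnajc6 and Bag4 show every 30 min mouse above every clean air mouse, Dnajb5 shows this at 120 min, and Hspa5, Hsp90ab1 and Hsp90aa1 overlap.

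The Hsp40 class was the most varied, with mean levels over the 9 libraries from 3.62 RPKM (Dnajc1) to 95.05 RPKM (Dnajc5). The clathrin co-chaperone Dnajc6 (auxilin) stood at 50.6, 35.5 and 42.5 RPKM in clean air mice, 52.4, 66.1 and 57.6 RPKM at 30 min and 60.04, 61.8 and 65.4 RPKM at 120 min. Every exposed mouse lay above every clean air mouse, narrowly at 30 min. The difference was 0.46 ± 0.17 (log2, SE, unadjusted p = 0.0188, adjusted p = 0.790, limma) at 30 min and 0.55 ± 0.17 (unadjusted p = 0.00697, adjusted p = 0.348, limma) at 120 min.

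Dnajc5 (cysteine string protein), which protects the vesicle release machinery, stood at 117, 56.6 and 56.9 RPKM in clean air mice, 125, 76.5 and 105 RPKM at 30 min and 116, 95.7 and 107 RPKM at 120 min. Clean air mouse 1 was as high as the exposed mice, and the other clean air mice were below all of them. The differences were 0.47 ± 0.28 and 0.55 ± 0.28 (log2, SE), and 0.81 and 0.89 without clean air mouse 1, where the adjusted p was 0.333 and 0.170 (limma). Clean air mice 2 and 3 had deeper libraries than clean air mouse 1, an estimated 22.2 and 29.9 M reads against 10.5 M. The part of depth in these differences was not tested.

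Dnajb5, a J-domain protein of the cytosol and nucleus, stood at 78.02, 69.8 and 58.0 RPKM in clean air mice, 87.6, 69.1 and 70.4 RPKM at 30 min and 99.4, 89.3 and 97.4 RPKM at 120 min. The 120 min mice were above all others, and the other groups overlapped. The 120 min difference was 0.48 ± 0.16 (log2, SE, unadjusted p = 0.0136, adjusted p = 0.390, limma). Dnajb14, anchored in the membrane of the endoplasmic reticulum, stood at 7.47, 4.14 and 6.67 RPKM in clean air mice, 7.57, 8.50 and 7.94 RPKM at 30 min and 13.3, 11.4 and 5.68 RPKM at 120 min. All 30 min mice were above clean air, by 0.40 ± 0.30 (log2, SE), and at 120 min the mice split.

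In the other direction, Dnajc19, a subunit of the mitochondrial protein import motor, stood at 12.8, 10.8 and 17.3 RPKM in clean air mice, 10.3, 7.14 and 5.49 RPKM at 30 min and 12.6, 6.54 and 6.02 RPKM at 120 min. All 30 min mice lay below all clean air mice, and at 120 min mouse 1 was within the clean air range. The differences were -0.81 ± 0.31 (log2, SE, unadjusted p = 0.0238, adjusted p = 0.818, limma) and -0.71 ± 0.31 (unadjusted p = 0.0408, adjusted p = 0.497, limma). The gene overlaps Fxr1 on the opposite strand in GENCODE M21, and no use of strand in counting is given, so reads of both genes cannot be told apart. Dnajc9, a histone chaperone, had 17.3 ± 3.90, 13.2 ± 1.80 and 16.2 ± 1.24 RPKM (SD, n = 3), and Dnajc2, a ribosome-associated J protein, had 4.78 ± 1.76, 4.38 ± 1.00 and 3.19 ± 1.32 RPKM. For Dnajc9 every 120 min mouse lay above every 30 min mouse, and clean air overlapped with both, whereas the groups of Dnajc2 overlapped.

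The stress-inducible Dnajb1, the classical partner of Hsp70 after heat shock, stood at 24.1, 16.7 and 23.9 RPKM in clean air mice, 26.5, 22.8 and 25.3 RPKM at 30 min and 21.7, 18.2 and 18.5 RPKM at 120 min. All 120 min mice lay below all 30 min mice, by -0.35 ± 0.18 (log2, SE, unadjusted p = 0.0760, adjusted p = 0.999, limma), and both groups overlapped with clean air. Dnaja1, the farnesylated partner of Hspa8, stood at 2.10, 6.76 and 3.46 RPKM in clean air mice, 2.79, 6.91 and 4.47 RPKM at 30 min and 1.97, 4.73 and 2.93 RPKM at 120 min, highest in mouse 2 of each group. Its relative Dnaja2 had 30.2 ± 5.86, 37.9 ± 6.44 and 31.5 ± 4.73 RPKM (SD, n = 3). Dnajc8, a spliceosome-associated J protein, had 61.6 ± 22.6, 62.4 ± 16.0 and 56.5 ± 23.6 RPKM, a spread that leaves its small differences unresolved. Dnajc3a (P58IPK), which restrains the kinase PERK, had 7.01 ± 2.00, 8.45 ± 1.82 and 9.14 ± 2.52 RPKM with overlapping groups. The class median was 0.14 at 30 min and 0.01 at 120 min, and the summed level was 625 ± 39.0, 685 ± 9.95 and 689 ± 35.3 RPKM (SD, n = 3).

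**Figure D3:**
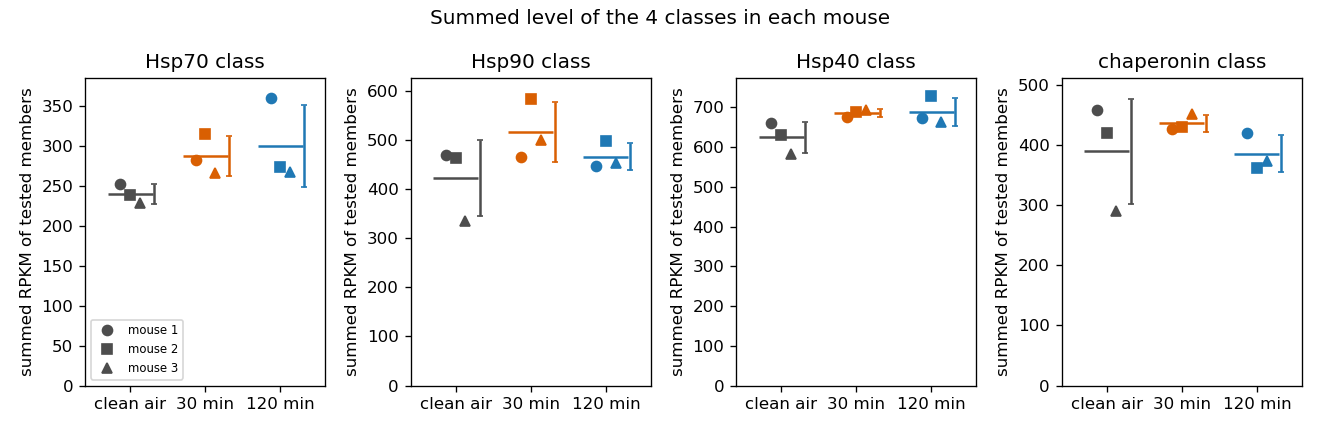
Summed RPKM of the tested members of the Hsp70, Hsp90, Hsp40 and chaperonin classes in each mouse (axes start at 0), with symbols for mouse number, lines for group means and bars for the SD, n = 3 per group. Clean air mouse 3 is lowest in each panel, at 334 RPKM for Hsp90 and 290 RPKM for the chaperonins.

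Differences between groups of chaperonin genes were smaller than those between single clean air mice. All 9 genes had a mean log2 level above clean air at 30 min (8 of 9 under median centring, TMM or quantile scaling), with a median difference of 0.17, and none had an adjusted p under 0.841 (limma, 0 genes at an unadjusted p under 0.05). Without clean air mouse 3 that median was 0.00. All 9 had a lower mean at 120 min than at 30 min (8 of 9 under those scalings), with a median of -0.20. The lowest adjusted p of that comparison was 0.999 (limma), again with 0 genes at an unadjusted p under 0.05. Against clean air at 120 min the median was -0.02. The summed level was 458, 420 and 290 RPKM in clean air mice, 427, 429 and 452 RPKM at 30 min and 421, 362 and 374 RPKM at 120 min. Every 30 min mouse had a higher sum than every 120 min mouse, narrowly for the closest, while the clean air sums ranged from the lowest to the highest of all 9.

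Within CCT, whose rings hold a copy of each subunit, the RPKM levels were not equal: Cct7 had the highest mean of the tested subunits, 87.8 RPKM, and Cct4 the lowest, with group means of 20.6, 23.2 and 19.3 RPKM. Cct5 stood at 98.9, 80.4 and 45.2 RPKM in clean air mice, 93.1, 80.1 and 93.4 RPKM at 30 min and 91.9, 60.1 and 83.6 RPKM at 120 min. Clean air mouse 3 was lowest and clean air mouse 1 highest of all 9, so that the exposed groups lay inside the clean air range. The 30 min difference of Cct5 was 0.32 ± 0.27 (log2, SE), and -0.01 without clean air mouse 3. Cct2 stood at 65.0, 73.2 and 43.6 RPKM in clean air mice, 66.4, 73.1 and 74.6 RPKM at 30 min and 54.8, 63.5 and 52.7 RPKM at 120 min. All 120 min mice lay below all 30 min mice, by -0.32 ± 0.19 (log2, SE, unadjusted p = 0.123, limma), and clean air overlapped with both. All 7 CCT subunits had a higher mean log2 level at 30 min than in clean air and than at 120 min, also under median centring, TMM and quantile scaling. At 30 min the differences of Cct3, Cct4, Cct6a, Cct7 and Cct8 from clean air were 0.12 to 0.19 (log2). These genes share libraries, so 7 subunits are not 7 separate observations.

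The mitochondrial pair, which shares the promoter stretch above, did not track closely. Hspd1 (Hsp60) stood at 10.95, 10.4 and 6.80 RPKM in clean air mice, 11.7, 12.1 and 10.6 RPKM at 30 min and 9.94, 12.97 and 10.7 RPKM at 120 min. Hspe1 (Hsp10) stood at 18.7, 8.19 and 5.93 RPKM in clean air mice, 10.04, 11.7 and 7.89 RPKM at 30 min and 12.3, 7.53 and 9.77 RPKM at 120 min. Clean air mouse 3 was lowest of all 9 for both, and clean air mouse 1 was highest of all 9 for Hspe1 only. The 30 min differences were 0.30 ± 0.20 for Hspd1 and 0.01 ± 0.35 for Hspe1 (log2, SE). Without clean air mouse 3 the Hspd1 value was 0.10, and without clean air mouse 1 the Hspe1 value was 0.46. Both genes have processed copies in the genome with rows of their own, so their reads could be split.

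**Figure D4:**
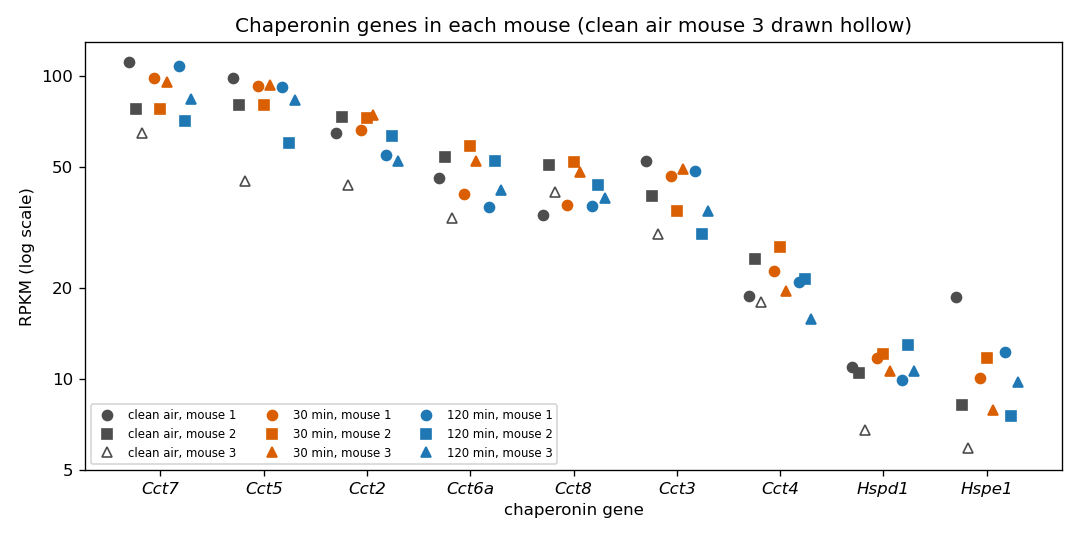
Level in RPKM (log axis) of the 9 tested chaperonin genes in each mouse, coloured by group with symbols for mouse number, clean air mouse 3 drawn hollow. The hollow symbol is lowest of the 9 mice for Cct2, Cct5, Cct6a, Cct7, Hspd1 and Hspe1, and the 30 min mice lie inside or near the range of the other clean air mice.

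Among the Bag genes, Bag4 (SODD), a regulator of Hsp70 and of tumour necrosis factor receptors, gave the lowest p of all members. It stood at 10.97, 11.4 and 11.1 RPKM in clean air mice, 13.6, 14.4 and 12.8 RPKM at 30 min and 16.3, 17.7 and 21.1 RPKM at 120 min. The 3 groups did not overlap with one another, and the clean air mice were close together. The difference from clean air was 0.27 ± 0.15 (log2, SE) at 30 min and 0.69 ± 0.15 at 120 min (unadjusted p = 0.000894, adjusted p = 0.331, limma). Between 30 and 120 min the difference was 0.42 ± 0.15 (unadjusted p = 0.0193, adjusted p = 0.999, limma). Bag3, the stress-inducible partner of Hspb8 in selective autophagy, stood at 9.91, 12.5 and 7.73 RPKM in clean air mice, 11.8, 10.1 and 11.1 RPKM at 30 min and 9.38, 16.3 and 13.9 RPKM at 120 min, with overlapping groups. Bag1, which links Hsp70 to the proteasome, had 29.4 ± 12.8, 33.1 ± 7.53 and 24.2 ± 3.73 RPKM (SD, n = 3). Its 30 min difference of 0.22 was 0.55 without clean air mouse 2, the mouse with 44.2 RPKM.

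The small heat shock genes were low, with a summed level of 13.6 to 23.2 RPKM over the 9 libraries. Hspb2, known from muscle, stood at 1.49, 1.09 and 2.28 RPKM in clean air mice, 1.45, 0.79 and 0.90 RPKM at 30 min and 0.86, 0.41 and 0.79 RPKM at 120 min. All 120 min mice were below all clean air mice, by -0.82 ± 0.32 (log2 of RPKM + 0.5, SE, unadjusted p = 0.0254, adjusted p = 0.453, limma). These values lie near the level filter, and the gene overlaps Cryab on the opposite strand. Hspb6 had 4.13 ± 1.45, 5.03 ± 1.32 and 5.53 ± 2.20 RPKM (SD, n = 3) with overlapping groups. Of the genes outside these classes, Hsph1 (Hsp110), whose promoter stretch is shown above, stood at 32.3, 43.8 and 25.6 RPKM in clean air mice, 36.0, 51.2 and 35.7 RPKM at 30 min and 43.4, 51.7 and 28.4 RPKM at 120 min. Mouse 2 was highest in each group, and the differences were 0.28 (95% interval -0.30 to 0.86) and 0.27 (95% interval -0.31 to 0.85) on the log2 scale. The rule also took in Hspg2 (perlecan), a basement membrane proteoglycan, and Hspc171, now named Tmem208, which are not heat shock proteins. Hspg2 had 4.92 ± 1.84, 5.07 ± 0.513 and 6.36 ± 1.62 RPKM, and Hspbap1, which binds Hspb1, had 1.09 ± 0.252, 1.31 ± 0.375 and 1.29 ± 0.525 RPKM (SD, n = 3).

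The members were regrouped by place and role, in lists chosen with earlier results of these data known. Their medians differed between lists, and no member passed the limma test. Of 13 members known as heat shock factor 1 targets, 11 were tested, and all 11 lay above clean air at 30 min (9 of 11 under median centring, TMM or quantile scaling), with a median of 0.23 and 0 passing the limma test (1, Hspa8, at an unadjusted p under 0.05). Their summed level was 637, 588 and 436 RPKM in clean air mice, 650, 776 and 661 RPKM at 30 min and 686, 663 and 624 RPKM at 120 min, with Hsp90ab1 the largest part. Clean air mouse 3 was far below the rest, and clean air mouse 1 lay just under the lowest 30 min mouse. The 11 tested members of the endoplasmic reticulum had medians of 0.06 and 0.09 at 30 and 120 min, near those of all genes, and the 7 mitochondrial members had 0.22 and 0.06. The 5 tested members tied to clathrin uncoating or the synapse had medians of 0.46 and 0.55, with 4 of 5 above clean air at both times under every scaling tried. Of these, 2 had an unadjusted p under 0.05 (Hspa8 and Dnajc6) and 0 passed the limma test. Their summed level was 292, 185 and 203 RPKM in clean air mice, 320, 290 and 291 RPKM at 30 min and 366, 281 and 316 RPKM at 120 min, so that clean air mouse 1 lay within the exposed range. Beside these values stand the mitral and tufted cell markers, whose part was not tested. At 120 min, 3 of 6 had an unadjusted p under 0.05 in limma (Reln 0.90, Tbx21 0.51 and Eomes 0.41 in log2). Cdhr1 had 0.44, while Slc17a7 and Doc2g, the most abundant of the list, had -0.03 and -0.27. The summed level of the 6 was 1040 to 1437 RPKM in clean air mice and 1145 to 1223 RPKM at 120 min.

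Partners of these chaperones outside the symbol rule did not pass the test either. Of 4 tested heat shock factor genes and their regulator, 18 Hsp90 co-chaperones, 11 further Hsp70 co-chaperones, 10 chaperonin partners, 17 folding genes of the endoplasmic reticulum and 1 crystallin, 0 were called by limma in any comparison. At an unadjusted p under 0.05, 0, 0, 0, 1, 0 and 0 of them stood out at 30 min and 0, 2, 3, 2, 1 and 0 at 120 min. Over all genes 5.92% did so at 30 min and 9.57% at 120 min (limma). Their median log2 differences were 0.02, -0.02, 0.21, 0.14, 0.09 and 0.18 at 30 min and 0.02, -0.02, 0.08, -0.11, 0.01 and -0.28 at 120 min, in the same order. Hsf1 itself, the factor that reads the heat shock element, had 27.3 ± 4.05, 24.3 ± 2.11 and 28.0 ± 3.04 RPKM (SD, n = 3). The 10 chaperonin partners, which are Tcp1 (the CCT subunit that the symbol rule leaves out), prefoldin subunits and relatives, all had a lower mean at 120 min than at 30 min (9 of 10 under median centring, TMM or quantile scaling), with a median of -0.32 against -0.03 for all genes. Their summed level was 432 to 447 RPKM in clean air mice, 422 to 488 RPKM at 30 min and 315 to 404 RPKM at 120 min. In this sum, weighted toward abundant prefoldin genes such as Pfdn2 (mean 108 RPKM), every 120 min mouse was below every other mouse. Singly, 2 of the 10 had every 120 min mouse below every clean air mouse (5.27% of all genes). Every 120 min mouse was below every 30 min mouse for 1 of the 10 (723 of 12780 genes). The lowest adjusted p among them in that comparison was 0.999 (limma), with 0 at an unadjusted p under 0.05.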

How the data were processed

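Alignment used Bowtie on mouse build mm9, per the submitters' processing notes. Not given in the sources used here are its version, the annotation, the counting rule, strand use and the treatment of reads with several matches. The authors deposited RPKM values with 2 decimals, no counts. Columns were matched to mice by the codes in the labels. The filter kept genes averaging 1 RPKM or more, and log2(RPKM + 0.5) was fitted with limma 3.58.1 (R 4.3.3, trended prior, 3 group means, no block, two-sided), with Benjamini-Hochberg adjustment over all 12780 genes and a threshold of 0.05. A difference is on that log2 scale, which understates changes of low genes. The 95% intervals are limma's. Classes follow symbols, later names came from GENCODE M21, and promoters from RefSeq. The fit was tested on simulated data. Alternatives covered pseudocounts of 0.1 and 1, a filter at 5 RPKM or none, median centring, TMM scaling (trimmed mean of M values, written in R), quantile normalization, library weights, 2 groups only, no trend, a mouse number block and each library left out. Members and lists were chosen with earlier results of these data known. Named were, in each comparison, the 10 members with the lowest p, the 10 highest in level, the extremes of each class and a fixed panel. Dnajc1, Hspa14, Hspa4l, Hspa1a, Hspa1b, Hsf1, the cell type markers and the genes near the filter or below it were named outside that rule. In 17 cases a chaperone gene or pseudogene carries another or no symbol in the table and was left out. Depth per library was estimated from the step of low values, since the table gives none, and floors cover counting error only.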

Additional observations from a re-analysis of the deposited data

How the results depend on the processing

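Of 20 alternatives, 9 of which left out 1 library, none called a member in any comparison in which it could be fitted, by limma at an adjusted p under 0.05. The fit of 2 groups gave no test for any difference among groups. Of 240 class medians recomputed, 2 moved by more than the SD between mice. The Hsp70 median at 30 min was 0.22 with the filter at 5 RPKM (main 0.11), which tests fewer genes. The Hsp40 median at 120 min ranged from -0.0385 to 0.106 over the libraries left out, highest without clean air mouse 2 (main 0.01, the cause was not tested). The SD between mice is wide, 0.30 for Hsp90 and 0.22 for chaperonin genes, so the small count says little about stability. Over the libraries left out, the 30 min median ranged from 0.02 to 0.39 for Hsp90 (main 0.28). For chaperonin genes it ranged from 0.0034 to 0.33 (main 0.17). Members at an unadjusted p under 0.05 between 30 and 120 min numbered 2, and 0 (30 min mouse 3) to 4 (clean air mouse 3) with 1 library left out. The shares of all genes in these fits were 3.36%, 2.12% and 4.33%. Of 2376 differences of 40 named members recomputed, 22 moved by more than 1 SE and 106 changed sign, none of them larger than 0.32 in the main analysis. The number of all genes called at 120 min was 11, and ranged from 0 (when clean air mouse 2 or 120 min mouse 3 was dropped) to 11 over the libraries left out, with 7 under the 5 RPKM filter, 7 with library weights and 2 with 2 groups only.

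Mouse numbers are those of the sample titles and are shared by the groups, but no label says that they pair mice. The submitters' own codes in the labels do not all carry these numbers. For some mice the control code differs from the code of the same title number in both odor groups. Over all tested genes, deviations from the group mean correlated by 0.08 to 0.44 within the 9 pairs of the same number. In the 18 other pairs they correlated by -0.38 to 0.09. Every library then correlated best with its own number, a hint from the data only. Over the members alone the 2 ranges overlapped, at -0.13 to 0.57 and -0.60 to 0.23. There, clean air mouse 3 correlated by -0.13 and -0.12 with the odor-exposed mice of its number. With mouse number as a replicate block, members called stayed at 0 in each comparison, and 8, 8 and 6 members had an unadjusted p under 0.05 at 30 min, at 120 min and between them (all genes 1396, 1910 and 854). The lowest adjusted p was then 0.402 (Hspa8), 0.176 (Bag4) and 0.723. The median share of a member's sum of squares was 23.2% between groups and 40.1% between mouse numbers (all genes 22.6% and 35.4%).

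With 3 mice a group and 6 residual degrees of freedom, differences of the size seen here are within reach of the spread between mice. Libraries of 7.16 to 29.9 M estimated reads limit low members such as Hspb2 most.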

Other observations

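The mouse number in the sample titles took a larger share of the sum of squares than the group for 40 of 64 members (62.5%), close to the 60.3% of all tested genes. Mouse 1 of each group was the lowest of its group for Dnaja1, Cct8, Dnajc4 and Dnajc9 and the highest of its group for Dnajc5, Dnajb5, Dnajb1 and Cct7, which is 4 members each way of 64 (6.25% each, against 5.36% and 9.16% of all tested genes). For Dnaja1 the mean of the 3 mice numbered 2 exceeded that of the mice numbered 1 by 1.25 on the log2 scale. For Dnajc5 it was lower, with a log2 difference of -0.67. The libraries numbered 1 held an estimated 10.5, 8.83 and 9.85 M reads, and those numbered 2 held 22.2, 28.9 and 24.2 M. Depth and mouse number cannot be told apart in this comparison of numbers 1 and 2. The libraries numbered 3 held 29.9, 17.4 and 7.16 M. Dnajc5 had 56.6 to 95.7 RPKM in the libraries of 22.2 M reads or more, and 105 to 125 RPKM in those of 17.4 M or fewer. The deeper set held clean air mice 2 and 3 and mouse 2 of each odor group. The part of depth in differences between groups was not tested. Hsp90 and chaperonin genes had the largest median share of their sum of squares between mouse numbers, 66.1% and 51.7%, and Hsp70 genes had 16.6%, with 44.7% between groups. Among small classes these medians rest on 3 to 10 genes. The genes named here were chosen after their values were seen.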
